A study of Mus musculus with 6 samples.

Results

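The EGF receptor family and its ligands were examined in mouse neural stem cells cultured from the walls of 2 brain ventricles. The family was taken as 10 genes, the receptors Egfr, Erbb2, Erbb3 and Erbb4 and the ligands Egf, Tgfa, Hbegf, Btc, Ereg and Areg. A gene was measured if a probe set of the array was annotated to it alone, which held for 9 of the 10, each with 1 probe set, out of 19938 genes in all. Areg had no such probe set and is not analysed here. The third ventricle cultures (3 arrays) were compared with lateral ventricle cultures (3 arrays), the cells of both groups being labelled as coming from the subventricular zone. All 6 cultures came from embryos of C57BL/6 mice that were wild type, labelled female and at embryonic day 17.5, and were grown in low-attachment dishes in DMEM/Neurobasal medium with N2, B27, FGF and EGF, the growth factors at 20 ng/ml each. Every culture was thus grown in EGF, with no arm without it, so the arrays compare the regions under EGF and hold no response to EGF. Values are log2 expression per probe set after RMA, and 0.36 on this scale is a 1.29-fold difference.

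The ErbB receptors are transmembrane tyrosine kinases that signal as dimers. Egfr binds EGF, transforming growth factor alpha (Tgfa), heparin-binding EGF-like growth factor (Hbegf), betacellulin (Btc), epiregulin (Ereg) and amphiregulin (Areg). Erbb2 has no known ligand of its own and is the preferred dimer partner of the others, Erbb3 has a strongly impaired kinase, and Erbb3 and Erbb4 bind neuregulins. The ligands are made as membrane-bound precursors and released by proteases. In the late embryonic brain, progenitors of the subventricular zone express Egfr and divide in response to EGF, Erbb4 is found in progenitors and migrating interneurons, and Erbb3 is a receptor of glial lineages such as oligodendrocytes.

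Promoter sequence was taken from RefSeq for mouse assembly GRCm38.p6, as the 300 bases from 250 before to 50 after each annotated start, written 5′ to 3′ on the strand of the gene. Of the 10 genes, 7 had an entry. Those of Egfr, Erbb2 and Erbb4 are shown because these are the receptors with the largest differences between the regions. Capitals mark TCCTCC or, on the other strand, GGAGGA, a repeat unit that was picked after the sequences were read, with overlapping matches counted separately.
Egfr, chr11:16751953-16752252, plus strand: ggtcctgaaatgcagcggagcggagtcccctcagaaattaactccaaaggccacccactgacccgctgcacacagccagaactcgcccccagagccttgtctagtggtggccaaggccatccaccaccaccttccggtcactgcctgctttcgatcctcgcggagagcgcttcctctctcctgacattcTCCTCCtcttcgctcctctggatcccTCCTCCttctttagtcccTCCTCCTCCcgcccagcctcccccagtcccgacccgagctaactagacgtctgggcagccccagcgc
Erbb2, chr11:98412234-98412533, plus strand: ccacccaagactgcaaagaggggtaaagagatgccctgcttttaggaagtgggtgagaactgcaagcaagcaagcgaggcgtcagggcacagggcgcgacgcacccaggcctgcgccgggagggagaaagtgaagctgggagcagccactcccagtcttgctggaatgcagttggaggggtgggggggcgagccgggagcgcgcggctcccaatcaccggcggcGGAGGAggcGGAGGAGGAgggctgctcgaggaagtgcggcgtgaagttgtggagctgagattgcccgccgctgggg
Erbb4, chr1:69108010-69108309, minus strand: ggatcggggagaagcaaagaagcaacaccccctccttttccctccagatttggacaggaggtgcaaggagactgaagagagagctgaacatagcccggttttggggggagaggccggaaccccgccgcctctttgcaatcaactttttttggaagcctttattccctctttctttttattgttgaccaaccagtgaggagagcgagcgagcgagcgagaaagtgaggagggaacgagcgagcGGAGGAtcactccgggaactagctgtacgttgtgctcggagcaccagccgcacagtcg

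The Egfr window held 4 matches, all reading TCCTCC, and the Erbb2 window held 3, all reading GGAGGA. The Erbb4 window held 1 match. The Egfr and Erbb2 windows span the outer start of their genes. That of Erbb4 belongs to a start within the gene, which reaches position 69108576, so the windows are not fully alike. Among all 32851 promoter windows of that length, 34.5% held at least 1 match and 3.05% held 3 or more. As the unit was picked after these sequences were read, these shares do not measure how unusual the windows are. They were also not matched for G and C content. None of the 3 windows held TATAAA on either strand, against 13.6% of all windows that did. GGGCGG on either strand, the core of the GC box, had 1 match in the Egfr window and 0 in the others, against 35.7% of all windows. The G and C content was 62.3% for Egfr, 66.0% for Erbb2 and 55.3% for Erbb4, with a median of 52.7% over all windows. These are descriptions of letters in a window, and the arrays hold no measurement of binding or methylation there.

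The labelled cell type was checked against marker genes. Of 9 neural stem cell markers, 8 lay on all 6 arrays above a background gauge, the 95th percentile of 1027 olfactory receptor genes (log2 5.03 to 5.16 on the 6 arrays). The exception, Prom1, was above it on 5 arrays and differed by -0.37 (adjusted p = 0.409), with Hes1 at 0.50 (adjusted p = 0.276) and Nes at 0.53 (adjusted p = 0.449). Nes passed as higher once lateral ventricle array 2 was left out (0.86, adjusted p = 0.0103), a fit in which 8.25% of all genes passed. That array had the highest Nes of the 6 (7.70), so leaving it out raised the difference by construction. Of the defining genes of other cells, 5 of 6 microglial, 4 of 4 vascular, 2 of 4 mesenchymal genes and the 1 Schwann cell gene measured lay below the gauge on all 6 arrays, while the other 2 mesenchymal genes lay above it on all 6. Array 2 of the lateral ventricle was unlike the rest of its group. Over all genes it correlated at 0.991 to 0.992 with the third ventricle arrays, and at 0.980 and 0.982 with lateral ventricle arrays 1 and 3. For this reason, calls that were gained or lost without it are given below.

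**Figure D1:**
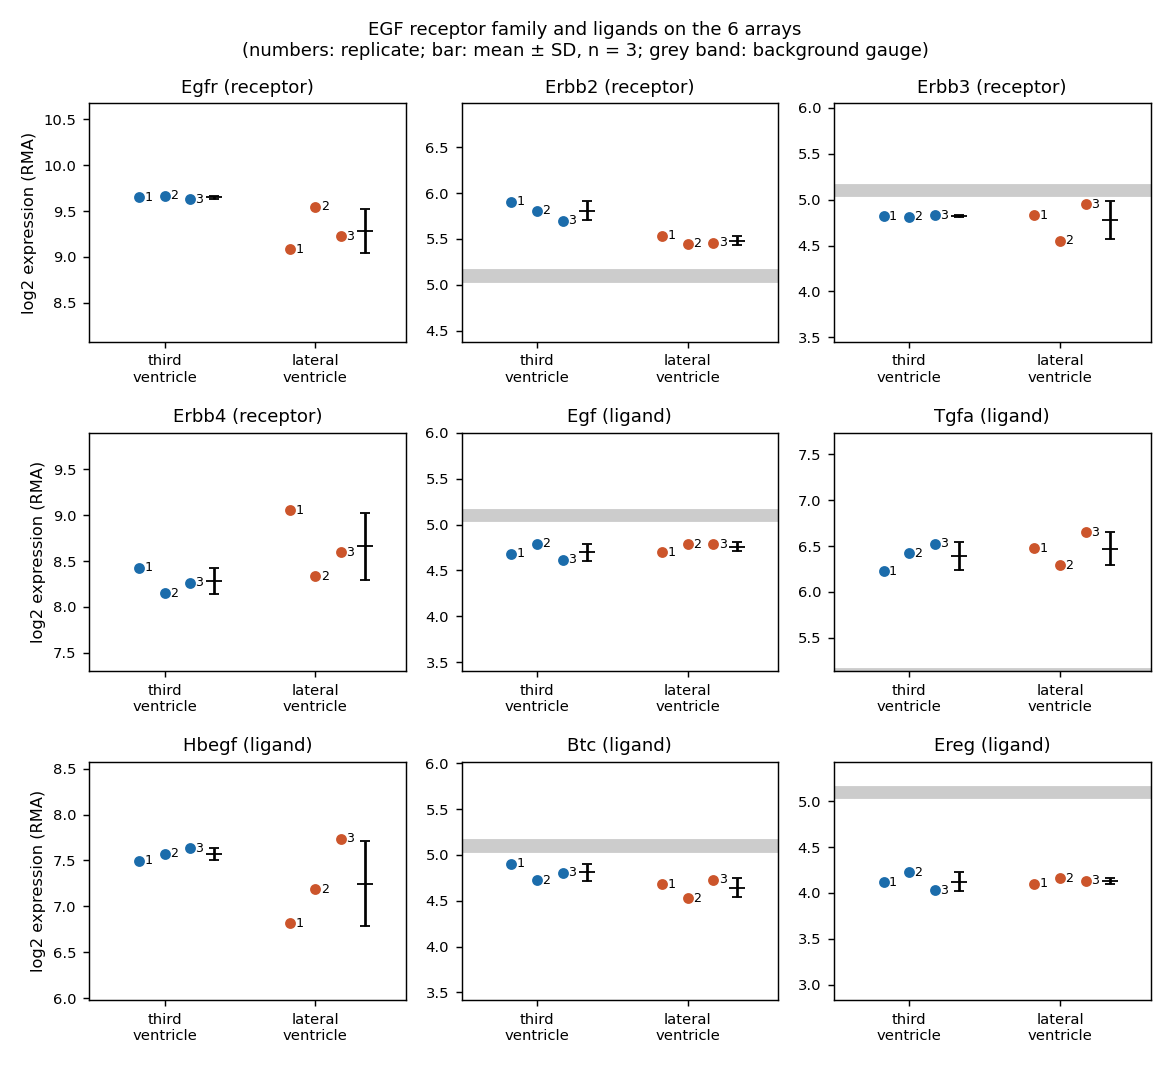
Log2 expression of the 9 measured genes on the 6 arrays, with the third ventricle (blue) left of the lateral ventricle (orange), with replicate numbers beside the points, black bars for mean ± SD (n = 3) and a grey band for the range of the background gauge over the arrays; each vertical axis spans the same number of log2 units. Egfr and Erbb2 are the only genes whose groups do not overlap, and Erbb3, Egf, Btc and Ereg lie under the gauge on all arrays.

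None of the 9 genes passed between the third and the lateral ventricle at an adjusted p below 0.05 (limma, adjusted over all genes). Over all genes 46 passed, or 0.231%, with 29 higher (0.145%) and 17 lower (0.0853%). At an unadjusted p below 0.05 there were 2 of the 9, Egfr and Erbb2, both higher, against 12.6% of all genes (6.21% higher and 6.43% lower). These were also the 2 whose groups were fully separate, both higher in the third ventricle, a separation seen in 17.0% of all genes (7.77% with the third ventricle higher and 9.24% with it lower). The median difference was 0.045 over the 9 genes and -0.018 over all genes. In bulk cultures, a change in the share of cells that carry a transcript and a change in transcript per cell cannot be told apart.

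Egfr, the receptor for the EGF in the medium, had 9.65, 9.67 and 9.63 in arrays 1 to 3 of the third ventricle, against 9.08, 9.55 and 9.23 in lateral ventricle arrays 1 to 3. The third ventricle arrays lay close together and above every lateral array, of which array 2 came nearest, 0.10 below the mean of the third ventricle. The means were 9.65 ± 0.019 in the third and 9.29 ± 0.24 in the lateral ventricle cultures (SD, n = 3), a log2 difference of 0.36 (SE 0.13, 95% interval 0.07 to 0.66, adjusted p = 0.338). Without lateral ventricle array 2 the difference was 0.50 (95% interval 0.27 to 0.72) and Egfr passed (limma, adjusted p = 0.0193), but in that fit 8.25% of all genes passed (4.37% higher and 3.88% lower), and array 2 lay nearer the third ventricle mean than the mean of lateral arrays 1 and 3. Array 2 had the highest Egfr of the lateral arrays, so leaving it out raised the difference by construction. Egfr passed only against lateral arrays 1 and 3, and no passing difference is shown for all 3 lateral arrays. Over the 14 alternative fits, its adjusted p ranged between 0.0193 and 0.840 and its difference between 0.11 and 0.50.

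Erbb2 had 5.91, 5.81 and 5.70 in the third ventricle arrays, against 5.54, 5.45 and 5.46 in the lateral arrays. The 3 lateral arrays differed little from each other, and array 2 was the lowest of them. The difference was 0.32 (SE 0.095, 95% interval 0.11 to 0.54), a 1.25-fold higher mean in the third ventricle cultures that did not pass (adjusted p = 0.287). It was 0.31 without lateral ventricle array 2 (adjusted p = 0.131) and lay between 0.27 and 0.38 in all 14 alternative fits. Erbb2 stood only a little above the background gauge, and RMA values of dim probe sets understate differences. A further probe set, annotated to both Erbb2 and Sympk, lay under the gauge in all 6 arrays, with means of 4.26 in the third and 4.28 in the lateral ventricle cultures, and was not used.

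Erbb4, a receptor of neuregulins, pointed the other way. It had 8.43, 8.15 and 8.27 in the third ventricle arrays, against 9.05, 8.34 and 8.60 in the lateral arrays. The groups overlapped, since array 1 of the third ventricle lay above array 2 of the lateral ventricle. The difference was -0.38 (SE 0.18, 95% interval -0.79 to 0.03, adjusted p = 0.421). It was -0.54 without lateral ventricle array 2 (adjusted p = 0.0739) and -0.19 without lateral ventricle array 1 (adjusted p = 0.689). Array 1 of the lateral ventricle was the highest of the 6. The mean levels of astrocyte, neuron, interneuron lineage and oligodendrocyte lineage genes were highest there too. Of 7 astrocyte genes, 5 lay above the gauge on all 6 arrays and 2 lay below it on all 6. The mean level of 7 astrocyte genes lay between 6.39 and 6.65 in the third ventricle arrays, against 7.23, 6.36 and 6.59 in the lateral arrays. The 3 astrocyte genes with the lowest p were Sparcl1 (0.94), Aldh1l1 (-0.43) and Apoe (-1.35). That of 9 neuron genes lay between 5.76 and 5.80 in the third ventricle arrays, against 6.16, 6.01 and 6.01 in the lateral arrays, without overlap, although 3 of the 9 lay above the gauge on all 6 arrays. The 3 neuron genes with the lowest p were Dcx (-1.63), Gad1 (-0.35) and Tubb3 (-0.60). Gad1 was above the gauge on only 1 lateral array, so its difference cannot be read as expression. Of the 3 neuron genes above the gauge on all 6 arrays, Tubb3 and Rbfox3 (-0.08) were lower and Map2 (0.24) was higher. The mean level of 6 interneuron lineage genes lay between 4.87 and 5.06 in the third and between 4.99 and 5.09 in the lateral ventricle arrays. Of these 6, 1 was above the gauge on all arrays, and those with the lowest p were Dlx2 (-0.35), Lhx6 (0.15) and Dlx6 (-0.09). No gene of the astrocyte, neuron and interneuron lineage lists passed with all 6 arrays in the main comparison. Without lateral ventricle array 2, where 8.25% of all genes passed, Dcx (-1.92, adjusted p = 0.00523), Tubb3 (-0.78, adjusted p = 0.0175) and Apoe (-2.04, adjusted p = 0.0210) passed as lower and Sparcl1 (0.68, adjusted p = 0.0200) as higher. Dcx also passed with array weights and with a replicate block, and Sparcl1 with the cell cycle covariate. Their part in the Erbb4 values was not tested.

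Erbb3, the receptor with the impaired kinase, lay between 4.82 and 4.83 in the third ventricle arrays, against 4.83, 4.55 and 4.95 in the lateral arrays, all below the background gauge. At this brightness neither its levels nor its differences can be read as expression. Genes of the oligodendrocyte lineage were nevertheless measured in the same cultures: all 8 with a probe set lay above the gauge on all 6 arrays. Their mean level lay between 6.69 and 6.80 in the third ventricle arrays, against 7.32 to 7.45 in the lateral arrays, without overlap. Of the 8, 2 passed, both lower in the third ventricle cultures, against 0.231% of all genes that passed (0.0853% lower). They were Pdgfra, the PDGF receptor of oligodendrocyte progenitors (-1.79, adjusted p = 0.00707), and Lhfpl3 (-1.22, adjusted p = 0.00746). Sox10 (-0.74, adjusted p = 0.118), Gpr17 (-1.35, adjusted p = 0.133) and Mbp (-0.12, adjusted p = 0.744) did not pass. Cspg4 (-0.09), Olig1 (0.17) and Olig2 (0.09) did not pass either, the last 2 being higher in the third ventricle cultures. The lower mean of the list thus does not hold for each of its genes. In the fit that leaves out array 2 of the lateral ventricle, 4 of the 8 passed, against 8.25% of all genes. Added there were Sox10 (-0.82, adjusted p = 0.0116) and Gpr17 (-1.53, adjusted p = 0.0109), and Gpr17 also passed with array weights. The calls of Pdgfra and Lhfpl3 were lost without array 2 or 3 of the third ventricle, and that of Lhfpl3 also without array 1 of the third ventricle. The part of this lineage in the differences of the ErbB receptors was not tested.

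Among the ligands, Hbegf and Tgfa were the 2 above the background gauge on all 6 arrays. Hbegf had 7.50, 7.58 and 7.63 in the third ventricle arrays, against 6.82, 7.19 and 7.73 in the lateral arrays. The lateral arrays enclosed the third ventricle group, with array 1 the lowest and array 3 the highest of all 6. The difference was 0.32 (SE 0.21, 95% interval -0.15 to 0.80, adjusted p = 0.567), and leaving out an array moved it by over 1.5 times, to 0.11 without lateral ventricle array 1 (adjusted p = 0.865) and 0.57 without lateral ventricle array 3 (adjusted p = 0.269).

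Tgfa, a ligand of Egfr made in the forebrain, had 6.22, 6.42 and 6.53 in the third ventricle arrays, against 6.48, 6.29 and 6.65 in the lateral arrays. The groups overlapped almost fully, and the difference was -0.08 (SE 0.13, 95% interval -0.37 to 0.21, adjusted p = 0.837). Its sign turned, to values within 0.05 of 0, without lateral ventricle array 3, without array 1 of the third ventricle and with a cell cycle covariate.

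The other 3 measured ligands lay below the gauge on all 6 arrays, so neither their levels nor their differences can be read as expression. Egf, the gene for the growth factor that was added to the medium as protein, lay between 4.61 and 4.79 in the third and between 4.70 and 4.79 in the lateral ventricle arrays. Btc lay between 4.72 and 4.90 in the third and between 4.53 and 4.73 in the lateral arrays. Ereg lay between 4.03 and 4.23 in the third and between 4.10 and 4.16 in the lateral arrays. In all, 5 of the 9 genes were above the gauge on all 6 arrays, against 55.3% of all genes, and 4 were below it on all 6, against 34.4%.

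**Figure D2:**
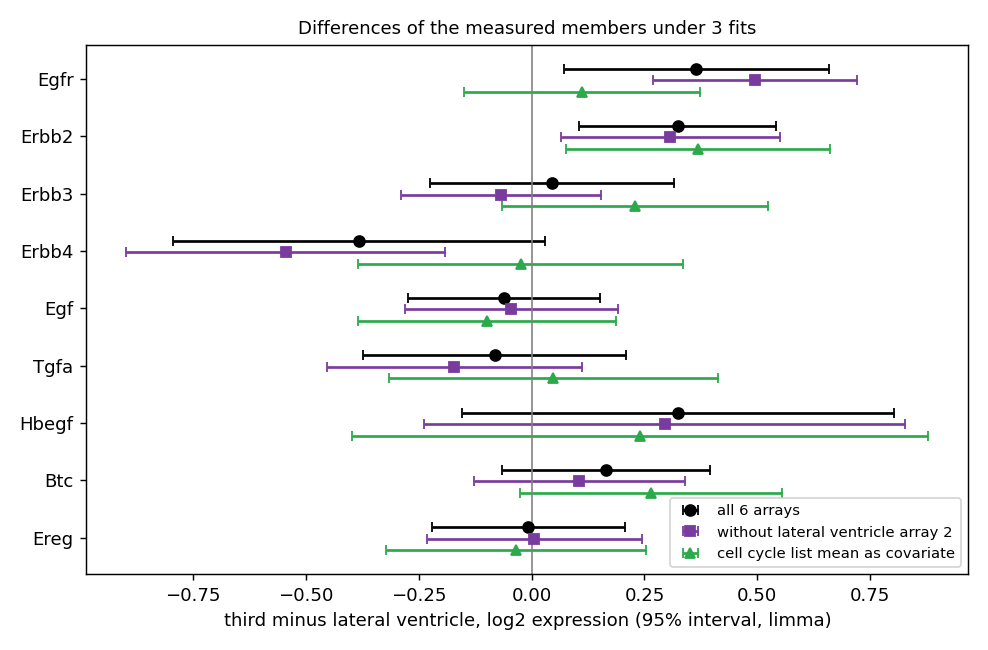
Difference in log2 expression, the third minus the lateral ventricle, for the 9 measured genes, with 95% intervals from limma, for all 6 arrays (black circles), without lateral ventricle array 2 (purple squares) and with the mean of the cell cycle list as a covariate (green triangles). Erbb2 lies between 0.31 and 0.37 in the 3 fits, while Egfr lies between 0.11 and 0.50 and Erbb4 between -0.54 and -0.024; Erbb3, Egf, Btc and Ereg are below background and their differences cannot be read as expression.

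The range over the 3 arrays was wider in the lateral than in the third ventricle cultures for 6 of the 9 genes, against 66.6% of all genes. For Egfr it was 0.038 in the third and 0.46 in the lateral ventricle cultures, and for Hbegf 0.14 in the third and 0.92 in the lateral ones. Erbb2 was among the 3 exceptions, with 0.21 in the third and 0.089 in the lateral ventricle cultures; Egf and Ereg were the others. Over all genes the median range was 0.20 in the third and 0.29 in the lateral ventricle cultures. Lateral ventricle array 2 lay nearer the mean of the third ventricle than that of lateral arrays 1 and 3 for 5 of the 9 genes, Egfr, Erbb3, Erbb4, Tgfa and Ereg, against 58.8% of all genes.

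Cell cycle genes had the order of Egfr, and the opposite of that of Erbb4, in lateral arrays 1 and 3 against array 2. The mean level of 13 such genes was 8.85, 8.87 and 8.90 in the third ventricle arrays, against 7.04, 8.92 and 7.58 in the lateral arrays. Lateral arrays 1 and 3 were low and array 2 was at the level of the third ventricle. All 13 had a positive difference, with a median of 1.15, and 0 passed (limma), with 10 at an unadjusted p below 0.05 against 12.6% of all genes. Leaving out lateral ventricle array 2, 13 of 13 passed as higher, with a median of 1.78, against 8.25% of all genes that passed in that fit. The median was 0.68, with 0 passing, when lateral ventricle array 1 was left out. The 3 with the lowest p were the mitotic kinases Aurkb (0.86), Aurka (1.15) and Bub1 (1.39). In a fit with the mean of this list as a covariate, chosen after the data were seen, the difference was 0.11 for Egfr (95% interval -0.15 to 0.37), -0.024 for Erbb4 (-0.38 to 0.34) and 0.37 for Erbb2 (0.07 to 0.66). The adjusted p in that fit was 0.840 for Egfr, 0.984 for Erbb4 and 0.456 for Erbb2. Erbb2 was thus as large with the covariate as without it, and Egfr and Erbb4 were nearer 0. This fit rests largely on lateral ventricle array 2, the only lateral array at the level of the third ventricle in these genes. The third ventricle mean minus lateral array 2 was 0.10 for Egfr, -0.056 for Erbb4 and 0.36 for Erbb2. The fit therefore cannot tell the cell cycle list apart from other traits of that array. The part of the cell cycle in these values was not tested further.

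**Figure D3:**
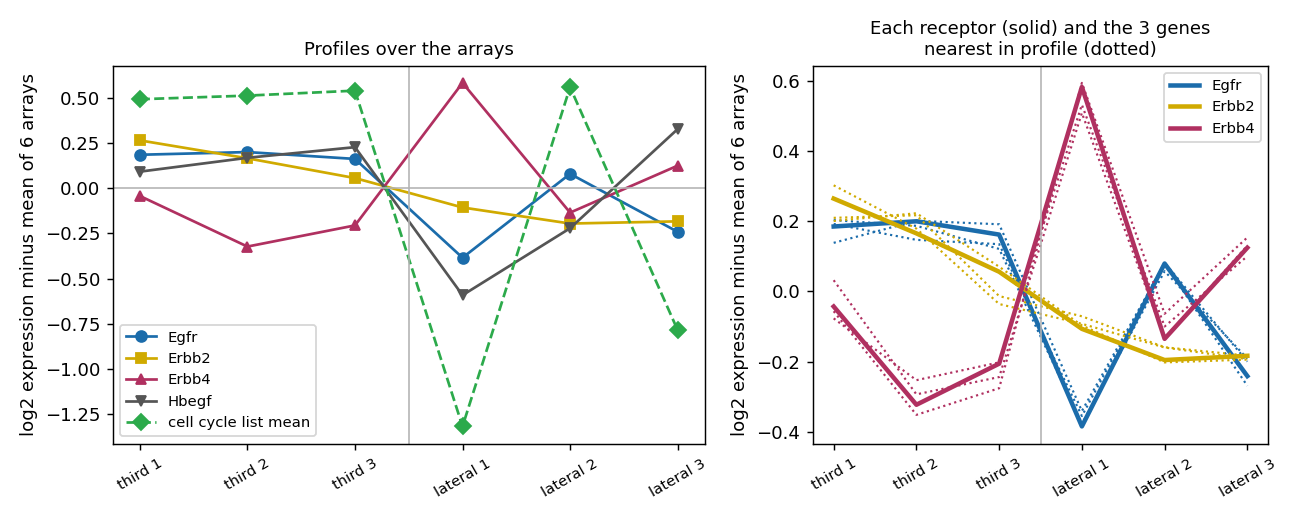
Left, log2 expression of Egfr, Erbb2, Erbb4, Hbegf and the mean of the cell cycle list on each array, minus the mean over the 6 arrays; right, Egfr, Erbb2 and Erbb4 (solid) with the 3 genes nearest to each in profile (dotted). Lines only join the values of a gene, since replicates have no order. Egfr and the cell cycle list are low in lateral arrays 1 and 3, where Erbb4 is high, and Erbb2 is low in all 3 lateral arrays.

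The genes nearest in profile were sought among 11019 others above the gauge on all 6 arrays, by the root mean square difference of log2 values over the 6 arrays after centring each gene. Nearest to Egfr were Kpnb1, an importin (0.029), Cdk2ap1, a CDK2-associated protein (0.031) and Pgp, phosphoglycolate phosphatase (0.032). These 3 shared the low values of lateral arrays 1 and 3, and like Egfr they passed only without lateral ventricle array 2. Nearest to Erbb2 were Rdh11, a retinol dehydrogenase (0.036), Scoc (0.044) and Cd2ap, an adaptor that binds Cbl proteins and takes part in receptor endocytosis (0.047). Nearest to Erbb4 were Ube4a, a ubiquitin ligase (0.042), Slc25a44, a mitochondrial carrier (0.045) and Ube2h, a ubiquitin-conjugating enzyme (0.047). Tgfa was nearest to Zbtb21 (0.038), Rnf208 (0.040) and Rpe (0.040), and Hbegf to the matrix gene Fbln2 (0.067), Lyrm9 (0.091) and the laminin Lama1 (0.099).

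Genes around the receptors were described in 6 lists with 85 genes, all of them measured, and 0 of the 85 passed (limma). At an unadjusted p below 0.05 there were 14, or 16.5%, against 12.6% of all genes, with 8 higher and 6 lower in the third ventricle. The groups were separate in 17 of the 85, or 20.0%, against 17.0% over all genes. Both shares are near those of all genes. Without lateral ventricle array 2, 3 of the 85 passed, Ptprk, Rab5a and Fosb, against 8.25% of all genes. With the cell cycle covariate, a fit that rests largely on lateral ventricle array 2, several of the differences below were much smaller. They were 0.14 for Adam12, 0.16 for Vav3, 0.39 for Dusp6, 0.14 for Ptprk, -0.040 for Rab5a and 0.31 for both Etv4 and Klf10. That of Phlda1 was -0.80.

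The further ErbB ligands lay near or below background. Of Epgn and the neuregulins Nrg1 to Nrg4, 0 of 5 was above the gauge on all 6 arrays. Nrg1, a ligand of Erbb3 and Erbb4, and Nrg2 were above it on 1 lateral array each, and Epgn, Nrg3 and Nrg4 on none, so their differences cannot be read as expression. Genes for ligand release were above the gauge on all arrays in 7 of 8 cases, and their median difference was 0.055, or -0.014 without lateral ventricle array 1. Adam12, a metalloprotease that can cleave the Hbegf precursor, differed by 0.80 (adjusted p = 0.372). It had 7.27, 7.63 and 7.63 in the third ventricle arrays, against 5.87, 7.25 and 7.01 in the lateral arrays, without overlap. Lateral array 1 was the lowest, and without it the difference was 0.38. Adam10, a sheddase of Btc and EGF, differed by 0.18 (adjusted p = 0.458), also without overlap, and Bace1, a protease of Nrg1, by -0.17. Groups were thus separate in 2 of these 8 genes, or 25.0%, against 17.0% of all genes.

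Adaptors and proximal effectors had a median difference of 0.049 over 18 genes, or -0.029 with the cell cycle covariate. The docking protein Gab2 differed by -0.38 (adjusted p = 0.322) and Eps8, a substrate of Egfr, by -0.51 (adjusted p = 0.395). These were the 2 genes of this list without overlap between the groups, or 11.1%, against 17.0% of all genes. Without lateral ventricle array 3 the difference of Eps8 was -0.23. Vav3 differed by 0.59 (adjusted p = 0.383), and by 0.29 without lateral ventricle array 1. Negative regulators had a median of 0.082 over 19 genes (0.014 to 0.15 with single arrays left out), 13 of them with a positive difference against 9052 of all 19938 genes. Lrig1, a membrane protein that promotes the loss of ErbB receptors, differed by 0.27 (SE 0.10, adjusted p = 0.342), the receptor phosphatase Ptprk by 0.39 (SE 0.16, adjusted p = 0.371) and the ERK phosphatase Dusp6 by 1.12 (SE 0.41, adjusted p = 0.347). In these 3 the groups did not overlap, or 15.8% of the list, against 17.0% of all genes. Ptprk was at 0.23 without lateral ventricle array 3, and passed as higher without lateral ventricle array 2 (0.55, adjusted p = 0.0259). Dusp6 had 7.76, 7.96 and 8.00 in the third ventricle arrays, against 5.67, 7.33 and 7.37 in the lateral arrays. Its lateral array 1 was far below the others, and without it the difference was 0.56.

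**Figure D4:**
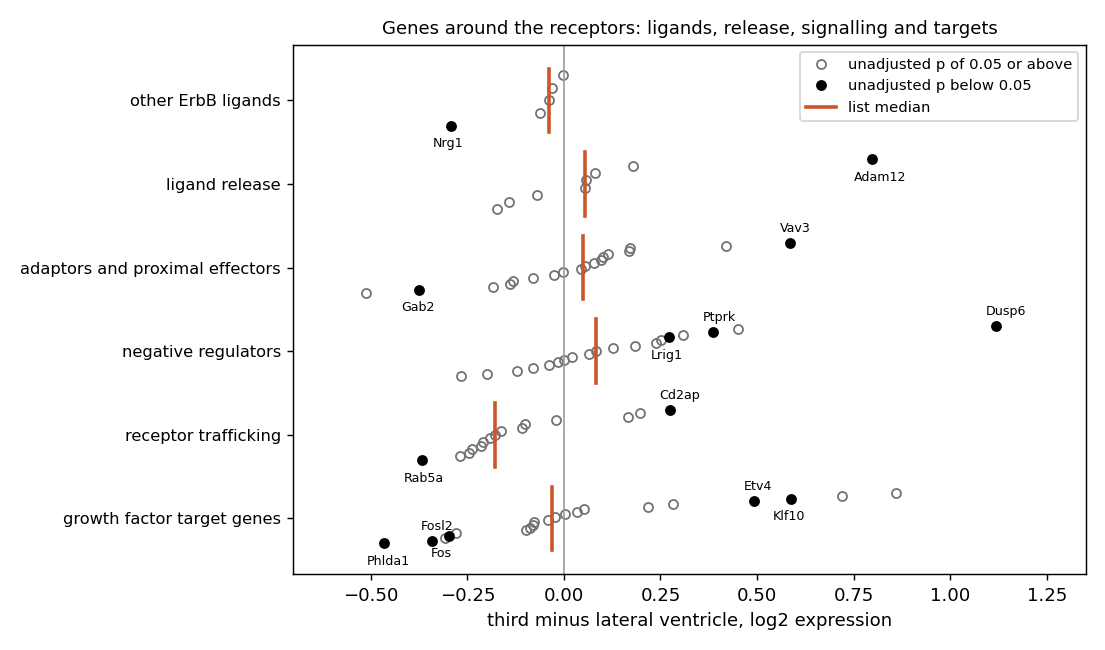
Difference in log2 expression, the third minus the lateral ventricle, for each gene of 6 lists, with filled circles and names for an unadjusted p below 0.05 and an orange line for the list median; the vertical place within a list has no meaning. No gene passed after adjustment over all genes, and the receptor trafficking list has the lowest median, at -0.18, which was -0.012 with the cell cycle covariate.

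Receptor trafficking genes, which carry ErbB receptors into and through endosomes, had a median of -0.18 over 15 genes, with 12 negative and 0 passing, against 10886 negative of all 19938 genes. The median was -0.092 without lateral ventricle array 3 and -0.012 with the cell cycle covariate. Groups did not overlap in 5 of the 15, or 33.3%, against 17.0% of all genes, with the third ventricle arrays above the lateral ones for Cd2ap and below them for Sh3kbp1, Epn1, Rab11a and Hgs. Epn1, Rab11a and Hgs were named after their values were seen. Rab5a, the GTPase of early endosomes, differed by -0.37 (adjusted p = 0.379), Cd2ap by 0.28 (adjusted p = 0.349) and Sh3kbp1, an adaptor that binds Cbl, by -0.27 (adjusted p = 0.400). Without lateral ventricle array 2, Rab5a passed as lower (-0.54, adjusted p = 0.0159) and Sh3kbp1 was at -0.17.

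Growth factor target genes had a median of -0.032 over 20 genes, or -0.11 when array 1 of the lateral ventricle was left out and 0.066 when array 3 was. Etv4, a transcription factor of the ETS family, differed by 0.49 (adjusted p = 0.347), the zinc finger factor Klf10 by 0.59 (adjusted p = 0.351) and Phlda1 by -0.46 (adjusted p = 0.382). Etv4 lay above the gauge on 1 of 3 lateral arrays, and its difference was 0.31 without lateral ventricle array 1, where that of Phlda1 was -0.71. Fosb, an AP-1 subunit that lay below the gauge on all 6 arrays, passed when lateral ventricle array 2 was left out (-0.46, adjusted p = 0.0342) and was named after its values were seen. Lateral array 1 was the lowest of the 6 arrays for 11 of these 20 genes, or 55.0%, against 23.3% of all genes. The count was 8 of the 19 negative regulators, or 42.1%, and 4 of the 8 ligand release genes. For the cell cycle list it was 13 of 13, so a low lateral array 1 was not particular to target genes and negative regulators. In the other pathway lists it was 5 of 18 adaptors and proximal effectors, 1 of 15 receptor trafficking genes and 0 of 5 further ErbB ligands. Klf10 had 6.96, 7.01 and 7.06 in the third ventricle arrays, against 5.87, 6.58 and 6.82 in the lateral arrays, and 0.31 was its difference without lateral array 1.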

How the data were processed

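Total RNA of 6 cultures was extracted with Trizol and, per the labels' protocols, amplified from 500 pg to 50 ng with the NuGEN WT-Ovation Pico system. The authors deposited log2 values, 1 per probe set and array. The submitters' processing notes name RMA and Affymetrix Expression Console 1.1, and no further setting is given in the sources used here. Of 35556 probe sets, the platform annotation gave 1 symbol to 21789, several to 1621 and none to 12146. For each of 19938 genes, the brightest of its single-symbol probe sets on average over the arrays was kept, with no filter, and 19919 symbols matched the RefSeq gene table.

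Titles gave each array's region. The third ventricle was compared with the lateral one in limma 3.58.1 under R 4.3.3 (lmFit, eBayes). P-values were adjusted by Benjamini-Hochberg across every gene, and 0.05 was the limit for passing. Means are ± SD over 3 arrays, and the number of arrays limits the precision. An exact permutation test of 3 against 3 arrays cannot go below a two-sided p of 0.1, so single genes rest on limma. Arrays are labelled as biological replicates. The series' design mentions independent females but ties none to a replicate number, so the tests measure how far these cultures vary. No scan date or other batch is given. The fit was checked on simulated data. The members and lists were chosen with earlier results of these data known. Named are all members, per list the passing genes and the 3 others with the lowest p, and the 3 genes nearest in profile to each member above the gauge. Genes of the microglial, vascular, mesenchymal and Schwann cell lists, most of them below the gauge, are given as counts.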

Additional observations from a re-analysis of the deposited data

How the results depend on the processing

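Of the 9 genes, 0 passed in 13 of 14 alternatives, and 1, Egfr, passed without lateral ventricle array 2 (leaving out single arrays gave 0 to 1). The count over all genes was 46, against 158 with array weights, 28 with the cell cycle covariate, and 4 to 1644 when single arrays were left out. The count over the pathway and marker lists was 2, against 4 with array weights and 0 to 25 with single arrays left out.

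Signs turned for the following differences, none of which passed with all 6 arrays, although Nes passed without lateral ventricle array 2. Leaving out single arrays gave -0.068 to 0.13 for Erbb3, -0.17 to 0.0067 for Tgfa, -0.059 to 0.040 for Ereg, -0.13 to 0.012 for Nrg4, -0.16 to 0.065 for Nrg3, -0.17 to 0.052 for Zbtb21, -0.17 to 0.022 for Rnf208 and -0.13 to 0.018 for Rpe. Erbb3 was -0.011 with array weights, and Ereg was 0.0061 after quantile normalization and 0.012 after cyclic loess. With the cell cycle covariate Tgfa was 0.049, Nrg3 0.031, Bace1 0.076, Nes -0.12, Mbp 0.042, Zbtb21 0.099, Rnf208 0.11 and Rpe 0.034. Erbb3, Ereg, Nrg3 and Nrg4 lie below background, so their signs cannot be read as expression. The cause was not tested.

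The labels number the replicates 1 to 3 in both regions. Deviations from the group mean correlated at 0.24, 0.11 and 0.068 between same-numbered arrays, over 0.1 in 2 of 3 pairs. For each of the 6 arrays, this correlation was highest with its own number in the other region. The deviations of the 3 arrays of a group sum to 0, so these 6 matches are not independent. They are a weak hint from the data and not from the design. With a replicate block 57 genes passed over all genes, 0 of the 9 members and 3 list genes. Only 5 of the 9 members lay above background, which limits what can be said of Erbb3, Egf, Btc and Ereg.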
